A study of Mus musculus with 9 samples.

Results

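This account compares the small-intestinal mucosa of mice fed palm oil with that of mice fed safflower oil, segment by segment. Of the 9 arrays of the series, the comparison rests on 6, namely the HF-PO and HF-SO arrays of segments SI1, SI2 and SI3, chosen because these diets have the lowest and the highest P/S value. The HF-OO arrays are given beside them. All animals were males of the inbred laboratory strain C57Bl/6J, 9 weeks old when the diets began after a period on standard chow. The HF-PO diet was high in fat from palm oil (P/S1.0), the HF-OO diet was high in fat from olive oil (P/S4.6), and the HF-SO diet was high in fat from safflower oil (P/S10.1), each fed for 2 weeks before sampling. P/S is usually read as the ratio of polyunsaturated to saturated fatty acids. The small intestine was cut into 3 equal lengths, with SI1 nearest the stomach and SI3 nearest the colon, and the mucosa was scraped off. Vil1, a structural protein of the enterocyte brush border, had signals between 24595 and 33368 on all 9 arrays. Fabp6, a bile acid carrier of the distal end, had SI3 signals of 54148 with HF-PO, 54912 with HF-OO and 52117 with HF-SO, and at most 40.2 in SI1.

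Each array measured RNA pooled from 6 mice, and the 3 segments of a diet came from the same 6 mice. Each diet therefore had 1 pool, and the segments were not independent replicates. No p-value, SD or standard error could be given for a difference between diets, and every value below is the value of a single array. A gene was called apart in a segment when its values differed by at least 1.5-fold, on the scale of signal + 16. The unit is MAS5 signal, a linear brightness scaled by the authors so that the 2% trimmed mean of each array is 500, and differences are log2(signal + 16) of HF-PO minus HF-SO. In RNA from whole scrapings, fewer cells of a type and less RNA per cell cannot be told apart.

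Palm oil carries much of its fat as the saturated palmitic acid, safflower oil as the polyunsaturated linoleic acid, and olive oil as the monounsaturated oleic acid. Enterocytes take up fatty acids and rebuild them into triglyceride for export in chylomicrons, burn some in mitochondria and peroxisomes, and can desaturate saturated ones. Fatty acids bind PPAR alpha, a nuclear receptor that switches on oxidation genes, while polyunsaturated fatty acids are known, chiefly from liver, to hold down SREBP1, a transcription factor that drives fatty acid synthesis and desaturation.

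Of 10977 genes tested, 7 were at least 1.5-fold higher with HF-PO than with HF-SO in all 3 segments (0.0638% of genes tested). They were Scd1, Wbp2nl, Scd2, Gkn2, Acaa1b, Cd6 and Pck1. Another 7 were at least 1.5-fold lower in all 3 segments (0.0638%), namely Bco1, Fkbp5, Fa2h, Rad54l2, Ces5a, Mfap2 and Igkv14-111. Genes were tested only when their mean log2 level over all 9 arrays reached 6.80, so high values on a single diet helped. Nearest to that limit among the genes named were Mfap2 (6.89), Gkn2 (6.90), Cd6 (6.90), Wbp2nl (7.00) and Fa2h (7.00). Whether these would have passed without the arrays of their brighter diet was not tested. In SI1, 266 genes were higher (2.42%) and 318 lower (2.9%) with HF-PO. In SI2, 188 genes were higher (1.71%) and 285 lower (2.6%). In SI3, 290 genes were higher (2.64%) and 348 lower (3.17%), while quantile normalization gave 348 higher and 235 lower there. The genes that were apart in a single segment thus far outnumbered those that were apart in all of them. In at least 2 segments, 63 genes were higher and 97 lower. Another count gave 107 genes (0.975%) that were higher in a segment and lower in another.

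The median difference over all genes tested was -0.01 in SI1, -0.0050 in SI2 and -0.02 in SI3 (log2). Of the genes higher in SI2, 35 were also higher in SI3, which was 18.6% of the SI2 genes and 12.1% of the SI3 genes. SI1 and SI2 shared 22 higher genes (8.27% and 11.7%), and SI1 and SI3 shared 20 (7.52% and 6.90%). Among lower genes, SI2 and SI3 shared 42 (14.7% and 12.1%), SI1 and SI3 shared 38 (11.9% and 10.9%), and SI1 and SI2 shared 31 (9.75% and 10.9%). Over all genes tested, 2.42%, 1.71% and 2.64% were higher in SI1, SI2 and SI3, and 2.9%, 2.6% and 3.17% lower. Differences across genes correlated between SI2 and SI3 with a Pearson r of 0.18, while r was -0.00055 between SI1 and SI2 and -0.0051 between SI1 and SI3. Genes are not independent replicates, and segments of a diet share mice.

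**Figure D1:**
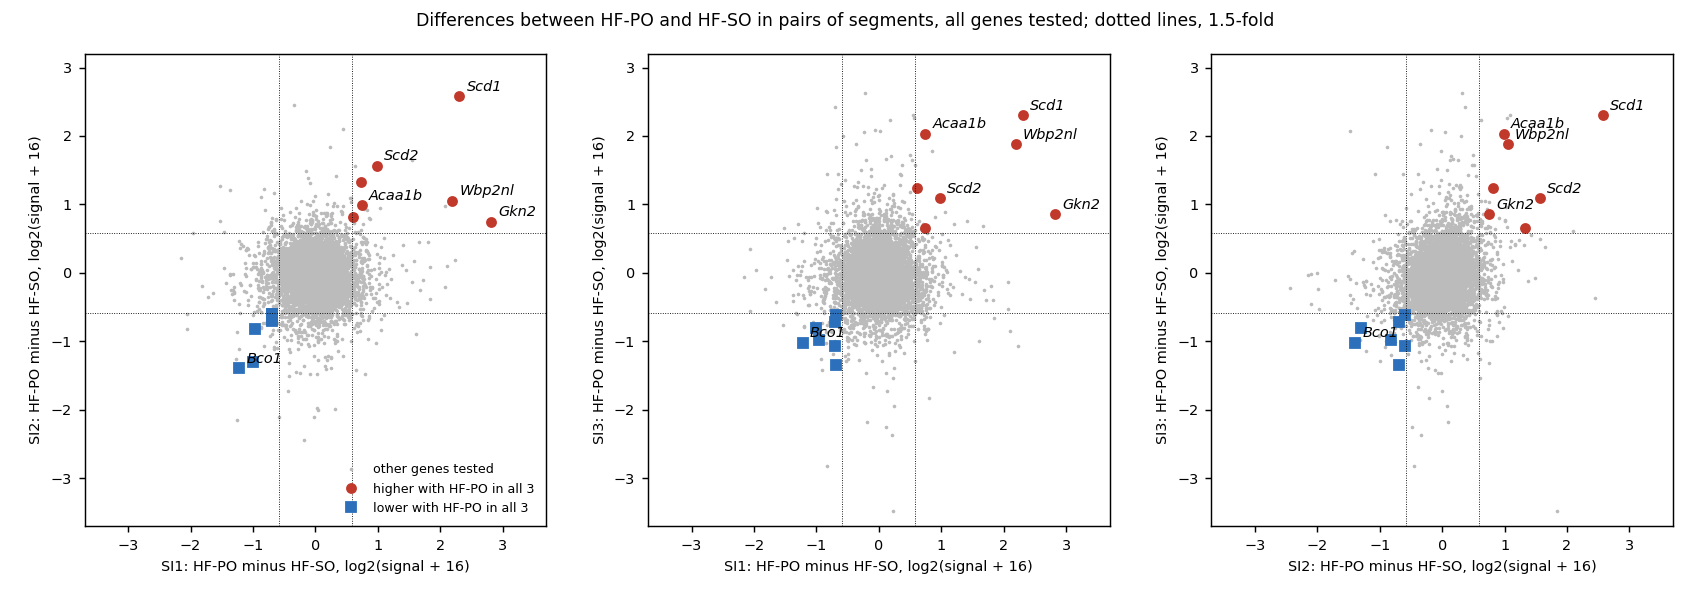
Each panel plots, for 2 segments, the difference of HF-PO minus HF-SO on the log2(signal + 16) scale for each of 10977 genes, with dotted lines at 1.5-fold. Red circles are the 7 genes higher and blue squares the 7 genes lower in all 3 segments; Scd1 stands at the far upper right in every panel.

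Both delta-9 desaturases tested were higher with HF-PO in all 3 segments, and Scd1 came first of all genes by the smallest of its 3 differences. Scd1, which turns stearic and palmitic acid into oleic and palmitoleic acid, lies on chromosome 19 from 44394450 to 44407709 (GRCm38.p6). Its signal in SI1 was 862 with HF-PO, 306 with HF-OO and 161 with HF-SO. In SI2 it was 2909.9 with HF-PO, 1282 with HF-OO and 474 with HF-SO, and in SI3 it was 4356 with HF-PO, 1277 with HF-OO and 868 with HF-SO. In each segment the HF-PO array was the brightest and the HF-SO array the dimmest. The differences of 2.31, 2.58 and 2.31 correspond to 4.95-fold, 5.97-fold and 4.95-fold higher values with HF-PO in SI1, SI2 and SI3. Scd1 was the only one of the 14 genes for which HF-OO lay between HF-PO and HF-SO in all 3 segments, which is the order of the P/S values. A second, dimmer probe set of Scd1 gave differences of 1.72, 1.80 and 1.96.

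Scd2, a close relative with the same kind of activity, lies near Scd1 on chromosome 19, from 44293676 to 44306864. Its signal in SI1 was 888 with HF-PO, 842 with HF-OO and 442 with HF-SO. In SI2 it was 1610.2 with HF-PO, 1759 with HF-OO and 532 with HF-SO, and in SI3 it was 10421 with HF-PO, 9284 with HF-OO and 4889 with HF-SO. Here HF-PO and HF-OO were close to each other and HF-SO stood below both, unlike the graded order of Scd1. The differences between HF-PO and HF-SO were 0.98, 1.57 and 1.09. Of the other probe sets of Scd2, the brighter gave 0.51, 1.45 and 1.19 and the dimmer 0.47, 1.27 and 1.22, so both were under 1.5-fold in SI1. The reference table of promoters used here had no entry for Scd1 or Scd2.

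Srebf1, which encodes SREBP1, was higher with HF-PO in all 3 segments but past 1.5-fold only in SI1. Its signal was 2662 with HF-PO, 2398 with HF-OO and 1548 with HF-SO in SI1. It was 2486 with HF-PO, 2912 with HF-OO and 1821 with HF-SO in SI2, and 1899 with HF-PO, 1839 with HF-OO and 1262 with HF-SO in SI3. As with Scd2, the HF-SO array was the dimmest in each segment, and the differences were 0.78, 0.45 and 0.58. The gene lists used from here on were chosen with earlier results of these data known, so their counts describe the data and test nothing. Of the 15 tested genes of fatty acid synthesis and desaturation, 5 were above 0 in all 3 segments (11.9% of all genes tested). Scd1 and Scd2, already picked by the rule for all 3 segments, are among these 5. Below 0 in all 3 were 3 of the 15 (14.1% of all genes tested). Besides Scd1, Scd2 and Srebf1, those above 0 were Me1, which supplies NADPH for synthesis (0.51, 0.50 and 1.72), and Elovl5, an elongase of polyunsaturated fatty acids (0.13, 0.09 and 0.12). Fasn, the fatty acid synthase, differed by -0.45, -0.82 and -0.09, Elovl6, which lengthens palmitic acid, by -0.19, -0.25 and -0.06, and Acly, which supplies acetyl-CoA, by -0.06, -0.12 and 0.02. Fads2, the delta-6 desaturase that starts the conversion of linoleic acid, differed by 0.66, -0.07 and -0.08. Of the 15 genes, 4, 2 and 3 were at least 1.5-fold higher in SI1, SI2 and SI3, and 0, 1 and 0 were lower. Over all genes tested, 2.42%, 1.71% and 2.64% were higher and 2.9%, 2.6% and 3.17% lower. The list medians were -0.04, 0.10 and 0.03, and that of SI1 was 0.15 with the mean of all probe sets.

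**Figure D2:**
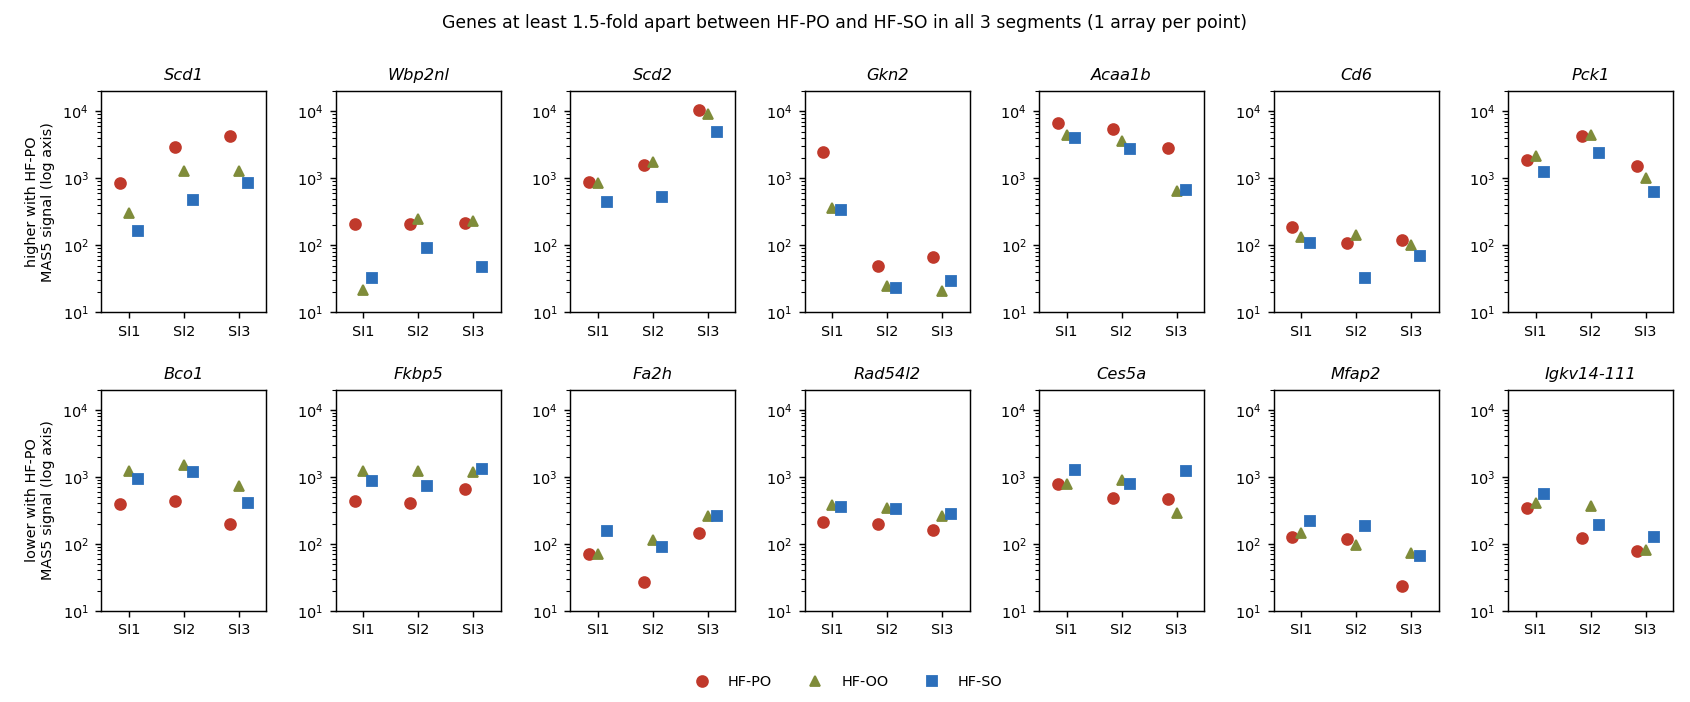
MAS5 signal on a log axis in SI1, SI2 and SI3 for the 14 genes at least 1.5-fold apart in all 3 segments, with HF-PO as circles, HF-OO as triangles and HF-SO as squares; each point is 1 array of pooled RNA. The HF-OO triangles of Scd1 lie between the other diets in every segment, while those of Scd2 lie beside HF-PO and those of Rad54l2 beside HF-SO.

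Lists of fatty acid oxidation genes had medians above 0 in all 3 segments, highest in SI3, and Acaa1b was past 1.5-fold in each segment. Acaa1b, a peroxisomal thiolase that makes the last cut of beta-oxidation, lies on chromosome 9 from 119148043 to 119157093. Its signal was 6817 with HF-PO, 4422 with HF-OO and 4061 with HF-SO in SI1. It was 5454 with HF-PO, 3561 with HF-OO and 2745 with HF-SO in SI2, and 2799 with HF-PO, 644 with HF-OO and 671 with HF-SO in SI3. The differences were 0.75, 0.99 and 2.03, and the HF-OO array was closer to HF-SO than to HF-PO in every segment. Signal was lower in SI3 than in SI1 on every diet, and as a ratio least so with HF-PO.

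Pdk4, a kinase that shuts off pyruvate oxidation and a classical PPAR alpha target, was just outside the 1.5-fold limit in SI1. Its signal in SI3 was 664 with HF-PO, 159 with HF-OO and 126 with HF-SO, and the differences were 0.57, 1.03 and 2.26. Me1, the malic enzyme, had SI3 signals of 1004 with HF-PO, 401 with HF-OO and 294 with HF-SO and differences of 0.51, 0.50 and 1.72. Retsat, which saturates retinol, had SI3 signals of 5205 with HF-PO, 1796 with HF-OO and 1732 with HF-SO and differences of 0.38, 0.51 and 1.58. In these genes HF-OO and HF-SO were close to each other in SI3 and HF-PO stood above both. Angptl4, a secreted inhibitor of lipoprotein lipase, differed by 0.49, 0.57 and 0.88. Acot1, an acyl-CoA thioesterase, had its largest gap in SI1, with differences of 1.66, 0.45 and 0.69. Its SI1 signal was 761 with HF-PO, 320.4 with HF-OO and 229 with HF-SO. Acot1 and Acot2 are close copies, so their probe sets may pick up each other's RNA.

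As a list, ketogenesis and other PPAR targets had 10 tested genes, with medians of 0.39, 0.39 and 0.64 in SI1, SI2 and SI3. Over all genes tested, 48.3%, 49.0% and 46.5% were above 0 in SI1, SI2 and SI3, and 11.9% were above 0 in all 3. Of the 10 PPAR target genes, 1, 1 and 6 were at least 1.5-fold higher, where 2.42%, 1.71% and 2.64% of all genes tested were. In any segment 0 were lower past that limit, and 8 were above 0 in all 3 segments. Members of these lists were chosen with earlier results of these data known, so the counts are a description only. The 16 tested genes of peroxisomal oxidation had medians of 0.17, 0.19 and 0.36, with 1, 1 and 3 past 1.5-fold higher and 12 above 0 in all 3 segments. Besides Acaa1b, already picked by the rule for all 3 segments, these included the thioesterases Acot3 (0.25, 0.25 and 1.03) and Acot4 (0.33, 0.39 and 0.83). Mitochondrial oxidation, with 20 tested genes, had medians of 0.08, 0.15 and 0.31, and 13 genes were above 0 in all 3 segments. Acot2 (1.05, 0.01 and 0.89) and Acadl, a long-chain acyl-CoA dehydrogenase (0.14, -0.01 and 0.78), were past 1.5-fold in SI3. Cpt1a, which controls entry of fatty acids into mitochondria, differed by only 0.16, 0.12 and 0.0007. Ppara itself differed by -0.06, 0.14 and 0.11, and Pparg by -0.17, 0.26 and 1.26.

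Fat uptake and chylomicron genes did not share a direction along the gut. Of 22 tested genes, 5, 18 and 21 were above 0 in SI1, SI2 and SI3, where 48.3%, 49.0% and 46.5% of all genes tested were above 0. At least 1.5-fold higher were 0, 0 and 6 of the 22, where 2.42%, 1.71% and 2.64% of all genes tested were. None of the 22 were lower past that limit. The medians were -0.20, 0.05 and 0.33. Apoc2, the cofactor of lipoprotein lipase, differed by -0.24, 0.05 and 2.06, and Fabp1, a fatty acid carrier inside enterocytes, by -0.54, -0.02 and 1.36. Cd36, a fatty acid receptor, was higher in all 3 segments, with signals in SI1 of 2412 with HF-PO, 2063 with HF-OO and 1675 with HF-SO and differences of 0.52, 0.29 and 0.79. Slc27a2, an acyl-CoA synthetase that imports fatty acids, differed by 0.47, 0.44 and 0.93. With quantile normalization the SI1 median of this list was -0.02 in place of -0.20. The summed signal of the list in SI1 was 383272 with HF-PO, 417587 with HF-OO and 447126 with HF-SO, and the brightest signal on these arrays was 44764 with HF-PO, 50596 with HF-OO and 53480 with HF-SO. Of 12 lipid droplet genes, G0s2, an inhibitor of lipolysis, differed by 0.65, 0.59 and 0.32, and the medians were -0.09, 0.20 and 0.27. Of 17 genes of cholesterol synthesis, 0 were past 1.5-fold in any segment, and the medians were -0.19, -0.03 and 0.11 (with the mean of all probe sets, 0.0080 in SI2 and -0.02 in SI3).

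Pck1, which makes phosphoenolpyruvate for glucose and glycerol synthesis, lies on chromosome 2 from 173153073 to 173159274 and was just inside the limit in SI1. Its signal was 1908 with HF-PO, 2153 with HF-OO and 1248 with HF-SO in SI1. It was 4275 with HF-PO, 4397 with HF-OO and 2430.0 with HF-SO in SI2, and 1514 with HF-PO, 1022 with HF-OO and 634 with HF-SO in SI3. The HF-SO array was the dimmest in each segment, and the differences were 0.61, 0.81 and 1.24. Another bright probe set of Pck1 gave 0.25, 1.21 and 1.37, and a dim one below the filter gave 0.0065, -0.67 and -0.09. Of 12 tested genes of sugar digestion, transport and fructose breakdown, Pck1 included, 1, 4 and 5 were at least 1.5-fold higher in SI1, SI2 and SI3. Those shares over all genes tested were 2.42%, 1.71% and 2.64%. Above 0 were 3, 11 and 12 of the 12, where 48.3%, 49.0% and 46.5% of all genes tested were. The list medians were -0.12, 0.39 and 0.43. Slc2a5, the fructose transporter, had SI2 signals of 5654 with HF-PO, 4387 with HF-OO and 2968 with HF-SO and differences of 0.01, 0.93 and 0.39. G6pc, which releases free glucose, differed by -0.10, 0.61 and 0.71, and Fbp1, a gluconeogenic phosphatase, by 0.10, 0.66 and 0.48. Slc2a2, which passes sugars to the blood, differed by -0.22, 0.39 and 0.75. Pck1 was thus the only gene of this list that was past 1.5-fold in SI1.

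Among the genes lower with HF-PO, Bco1 came first by the smallest of its 3 differences. Bco1 cuts beta-carotene into retinal and lies on chromosome 8 from 117095851 to 117133720. Its signal was 394 with HF-PO, 1224 with HF-OO and 941 with HF-SO in SI1. It was 442 with HF-PO, 1496 with HF-OO and 1186 with HF-SO in SI2, and 195 with HF-PO, 734 with HF-OO and 413 with HF-SO in SI3. The HF-PO array was the dimmest and the HF-OO array the brightest in each segment, so the order did not follow P/S. HF-SO was 2.33-fold, 2.63-fold and 2.03-fold above HF-PO, with differences of -1.22, -1.39 and -1.02.

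A window of 250 bases before the start of transcription that RefSeq's promoter table uses is printed for Bco1 and for Fkbp5 because these genes lead the lower set and their windows hold a match to a motif searched. Both windows are shown 5′ to 3′ on the strand of the gene, from RefSeq with build GRCm38.p6, with the matched letters in capitals. The Bco1 window is chr8:117095615-117095864 on the plus strand. The start used there, 117095865, lies 14 bases inside the gene's span given above, so the last 14 bases of the window are within that span. Its capitals are the PPAR element (2 copies of AGGTCA with 1 base of any kind between them) read on the opposite strand, beginning 56 bases before that start. The Fkbp5 window is chr17:28486150-28486399 on the minus strand and directly adjoins the gene, and its capitals are the E-box CACGTG, beginning 169 bases before the start.
Bco1: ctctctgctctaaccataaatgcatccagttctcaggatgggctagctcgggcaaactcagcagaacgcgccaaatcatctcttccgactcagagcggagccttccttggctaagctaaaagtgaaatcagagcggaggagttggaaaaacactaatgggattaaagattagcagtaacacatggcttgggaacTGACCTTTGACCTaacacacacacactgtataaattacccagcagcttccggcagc
Fkbp5: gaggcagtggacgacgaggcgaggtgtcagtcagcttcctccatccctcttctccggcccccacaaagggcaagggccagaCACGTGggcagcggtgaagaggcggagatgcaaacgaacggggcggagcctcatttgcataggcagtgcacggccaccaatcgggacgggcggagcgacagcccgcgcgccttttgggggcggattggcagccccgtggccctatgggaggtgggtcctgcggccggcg
Of the 14 genes, 7 had windows in the table, 8 windows in all, and 3 windows held a match to any of 6 motifs searched on both strands. Across all 32851 windows of this length, 11 held the PPAR element (0.0335%) and 1978 the E-box (6.02%). The Mfap2 match was to the interferon element (2 copies of GAAA with 2 bases of any kind between them), which 2.98% of windows held. The others searched were the sterol element, the D-box TTATGNAA and the antioxidant element TGACNNNGC, held by 0.0731%, 3.07% and 10.2% of windows. The windows of Acaa1b and Pck1 held none of these letters. A match is a description of the letters and says nothing of binding.

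Other genes of vitamin A handling did not follow Bco1. Isx, a transcription factor that holds down Bco1 in the intestine, differed by 0.10, 0.19 and 0.16. Rbp2, the retinol carrier inside enterocytes, differed by -0.28, 0.07 and 1.51, with SI3 signals of 22810.2 with HF-PO, 9566 with HF-OO and 8022 with HF-SO. Adh1 (-0.22, 0.14 and 0.67) and Adh4 (-0.11, 0.24 and 0.81), alcohol dehydrogenases that can oxidize retinol, were past 1.5-fold in SI3, as was Cyp26b1, which breaks down retinoic acid, in the lower direction (-0.23, 0.24 and -0.78). Of 13 tested genes of the list, Bco1 included, 0, 0 and 3 were at least 1.5-fold higher in SI1, SI2 and SI3 and 1, 1 and 2 lower. Shares over all genes tested were 2.42%, 1.71% and 2.64% higher and 2.9%, 2.6% and 3.17% lower.

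Fkbp5, a partner protein of the glucocorticoid receptor whose gene glucocorticoids induce, lies on chromosome 17 from 28398753 to 28486149. Its signal was 438 with HF-PO, 1204 with HF-OO and 869.5 with HF-SO in SI1. It was 399.6 with HF-PO, 1221 with HF-OO and 718 with HF-SO in SI2, and 648 with HF-PO, 1195 with HF-OO and 1289 with HF-SO in SI3. The HF-PO array was the dimmest in each segment, and the differences were -0.96, -0.82 and -0.98. A second bright probe set gave -1.03, -0.52 and -0.70. Other glucocorticoid-responsive genes lay on both sides of 0. With Fkbp5 counted, 2, 6 and 5 of the 12 tested were above 0 in SI1, SI2 and SI3. Shares over all genes tested were 48.3%, 49.0% and 46.5%. Tsc22d3 differed by 0.16, 0.02 and 0.36, Per1 by -0.17, 0.15 and 0.33, and Sgk1 by -0.18, -0.08 and 0.44. Hsd11b1, which regenerates active glucocorticoid, differed by -0.67, -0.05 and -0.61. Of 12 tested genes of the list, Fkbp5 included, 3, 2 and 2 were at least 1.5-fold lower and 0 higher. Over all genes tested, 2.9%, 2.6% and 3.17% were lower. In all 3 segments, 5 of the 12 were below 0 and 2 above, where 14.1% and 11.9% of all genes tested were. The list, which also holds Mt2 (described below), had medians of -0.17, -0.02 and -0.23.

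The metal-binding metallothioneins were lower with HF-PO in all 3 segments, though neither passed 1.5-fold in every segment. Mt2 had signals of 1611 with HF-PO, 3017 with HF-OO and 2968 with HF-SO in SI1. In SI3 its signals were 1729 with HF-PO, 2117 with HF-OO and 2549 with HF-SO, and its differences were -0.87, -0.80 and -0.56. Mt1 differed by -0.46, -0.98 and -0.56. The other 6 tested genes of that list, which handle zinc, lay between -0.39 and 0.44. The stress-induced chaperone gene Hspa1a had SI2 signals of 111 with HF-PO, 169 with HF-OO and 298 with HF-SO, and differences of -0.42, -1.31 and -0.97. Hspa1b, its near-identical copy, differed by 0.26, -1.23 and -1.14. The probe sets of these copies may pick up each other's RNA, and SI1 differed in sign between them. Of 12 heat shock genes, 5, 0 and 1 were above 0 in SI1, SI2 and SI3, so that SI1 was near the 48.3% of all genes tested, with medians of -0.04, -0.12 and -0.20 (0.04 in SI1 with the mean of all probe sets).

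The remaining genes of the 14 have less in common. Wbp2nl, known as a protein of sperm, lies on chromosome 15 from 82298925 to 82314647. Its signal was 208 with HF-PO, 21.5 with HF-OO and 32.9 with HF-SO in SI1. It was 206 with HF-PO, 244 with HF-OO and 91.1 with HF-SO in SI2, and 216 with HF-PO, 234 with HF-OO and 46.9 with HF-SO in SI3. HF-OO was thus with HF-SO in SI1 and with HF-PO in SI2 and SI3, and the differences were 2.19, 1.05 and 1.88. Cd6, a receptor on T cells (chromosome 19, 10789339 to 10830062), had signals of 191 with HF-PO, 135 with HF-OO and 108 with HF-SO in SI1. Its signals were 107 with HF-PO, 142 with HF-OO and 33.1 with HF-SO in SI2, and 118 with HF-PO, 102 with HF-OO and 69.6 with HF-SO in SI3. HF-SO was the dimmest array throughout, with differences of 0.74, 1.32 and 0.65. Of 10 tested markers of T and intraepithelial lymphocytes, 7 were above 0 in all 3 segments, where 11.9% of all genes tested were. The marker medians were 0.21, 0.30 and 0.08. The summed signal of that marker list was 20944 with HF-PO, 16595 with HF-OO and 17402 with HF-SO in SI1. In SI2 the sum was 12871 with HF-PO, 10156 with HF-OO and 9986 with HF-SO, and in SI3 it was 8074 with HF-PO, 5618 with HF-OO and 6664 with HF-SO. The part of lymphocyte content in the Cd6 values was not tested.

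Fa2h, which adds a hydroxyl group to fatty acids for sphingolipids, lies on chromosome 8 from 111345138 to 111393821. Its signal was 70.0 with HF-PO, 69.4 with HF-OO and 156 with HF-SO in SI1. It was 27.1 with HF-PO, 114 with HF-OO and 89.8 with HF-SO in SI2, and 143 with HF-PO, 263 with HF-OO and 263 with HF-SO in SI3. The HF-OO array stood with HF-PO in SI1 and with HF-SO elsewhere, and the differences were -1, -1.30 and -0.81. Rad54l2, a helicase-like protein of the SNF2 family on chromosome 9 from 106688080 to 106789213, was the most even of the set. Its signal was 214 with HF-PO, 375 with HF-OO and 358 with HF-SO in SI1. It was 198 with HF-PO, 342 with HF-OO and 331 with HF-SO in SI2, and 163 with HF-PO, 259.5 with HF-OO and 277 with HF-SO in SI3. The differences were -0.70, -0.70 and -0.71, yet another probe set of Rad54l2 that passed the filter gave 0.17, 0.17 and -0.24. The 2 probe sets of this gene therefore disagreed.

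Ces5a, a carboxylesterase on chromosome 8 from 93499063 to 93535879, had signals of 773 with HF-PO, 776 with HF-OO and 1257 with HF-SO in SI1. Its signals were 479 with HF-PO, 889 with HF-OO and 781 with HF-SO in SI2, and 473 with HF-PO, 290.4 with HF-OO and 1230.5 with HF-SO in SI3. HF-OO took a different place in each segment, and the differences were -0.69, -0.69 and -1.35. Its other probe sets, both below the filter, gave 0.21, -0.44 and 0.52 and -0.24, 0.78 and -0.36, and with the mean of all its probe sets Ces5a differed by -0.24, -0.12 and -0.40. Mfap2, a protein of elastic microfibrils (chromosome 4, 141010424 to 141015976), had signals of 128 with HF-PO, 144 with HF-OO and 219 with HF-SO in SI1. Its signals were 118 with HF-PO, 95.8 with HF-OO and 186 with HF-SO in SI2, and 23.4 with HF-PO, 74.0 with HF-OO and 66.5 with HF-SO in SI3. The differences were -0.70, -0.60 and -1.07, so SI2 was just inside the limit. A dim probe set of Mfap2 below the filter gave -0.11, -0.04 and 0.12. Igkv14-111, an immunoglobulin kappa variable gene (chromosome 6, 68256404 to 68256869), had signals of 343 with HF-PO, 403 with HF-OO and 563 with HF-SO in SI1. Its signals were 120.3 with HF-PO, 372 with HF-OO and 190.5 with HF-SO in SI2, and 77.2 with HF-PO, 79.7 with HF-OO and 127 with HF-SO in SI3. The differences were -0.69, -0.60 and -0.62, and probe sets of variable genes may pick up related ones. The lambda variable gene Iglv1 differed the other way, by 0.40, 0.91 and 0.80.

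Gkn2, a secreted protein of the stomach surface, was the gene with the largest difference of all in SI1. It lies on chromosome 6 from 87373365 to 87379494. Its SI1 signal was 2515 with HF-PO, 357 with HF-OO and 342 with HF-SO. Its signals were 49.0 with HF-PO, 24.6 with HF-OO and 22.7 with HF-SO in SI2, and 67.1 with HF-PO, 20.5 with HF-OO and 29.8 with HF-SO in SI3, near the bottom of the scale. The differences were 2.82, 0.75 and 0.86. Other stomach genes lay on both sides of 0 in SI1. Gkn3 differed by 2.24, 0.19 and -1.07, and Tff1, a stomach trefoil peptide, by 1.45, 0.04 and -0.09. Ctse was higher with HF-PO in all 3 segments, by 0.72, 0.57 and 0.48. Its SI1 signal was 2511 with HF-PO, 1949 with HF-OO and 1522 with HF-SO. Below 0 in SI1 were Atp4b, a subunit of the acid pump (-0.14, 0.68 and -0.16), and Pga5, a pepsinogen (-0.41, 0.57 and 0.38). Of 6 tested stomach genes, Gkn2 included, 4, 2 and 1 were at least 1.5-fold higher in SI1, SI2 and SI3, and 0, 0 and 1 lower. Of all genes tested, 2.42%, 1.71% and 2.64% were higher and 2.9%, 2.6% and 3.17% lower. The summed signal of the 12 measured stomach genes in SI1 was 15678 with HF-PO, 4882 with HF-OO and 4655 with HF-SO. In SI2 it was 4643 with HF-PO, 4077 with HF-OO and 3420 with HF-SO, and in SI3 it was 4212 with HF-PO, 3577 with HF-OO and 3522 with HF-SO. The part of stomach tissue in the SI1 array of HF-PO was not tested.

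Values just outside the limit give the scale of the choice. On the higher side, the smallest of the 3 differences was 0.57 for Pdk4, 0.55 for H2-Q10, 0.54 for Mettl7a1, 0.50 for Me1, 0.49 for H2-Q5 and 0.49 for Angptl4. On the lower side it was 0.57 in size for Pla2g12a, 0.56 for Mcph1, 0.56 for Mt2, 0.55 for Hk3, 0.54 for A330009N23Rik and 0.53 for Gna14. H2-Q10, a secreted class I molecule, had SI3 signals of 670.3 with HF-PO, 188 with HF-OO and 123 with HF-SO. Its differences were 0.55, 1.09 and 2.30, and the H2-Q genes are close copies that probe sets may not separate. At 1.3-fold, 33 genes were higher and 38 lower in all 3 segments. Of the 33 higher genes, 16 were in the 2 brighter of 4 equal brightness classes and 18 belong to a pathway or marker list, among them Srebf1, Slc27a2, Acot1, Cry2 and Aqp3. Of the 38 lower genes, 8 were in the 2 brighter classes and 8 belong to a list. Over all genes tested, 608 (5.54%) belong to a list, and the lists were chosen with earlier results of these data known. Aqp3, a channel for water and glycerol, had SI2 signals of 1919.5 with HF-PO, 1227 with HF-OO and 1135 with HF-SO and differences of 0.40, 0.75 and 1.04. The lower genes of lists include Cyp2c55, a cytochrome P450 of the gut, with differences of -0.56, -0.39 and -0.82, and the immediate early gene Egr1, with -0.69, -0.40 and -0.59.

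Some of the largest single-segment differences lay in regional genes. In SI2, Slc10a2, the bile acid importer of the ileum, had signals of 3.2 with HF-PO, 45.7 with HF-OO and 88.0 with HF-SO. Fgf15, the hormone that ileal bile acids induce, had SI2 signals of 21.4 with HF-PO, 60.2 with HF-OO and 132 with HF-SO. In SI3, where both genes are expressed strongly, Slc10a2 had 1598 with HF-PO, 1778 with HF-OO and 1871 with HF-SO, and Fgf15 had 1882 with HF-PO, 2532 with HF-OO and 2207 with HF-SO. The differences were -2.44 and -1.99 in SI2 and -0.23 and -0.23 in SI3, so the gap lay where the genes are dim. Where the cuts between segments fell was not tested. Cyp1a1, which oxidizes foreign compounds, was lower with HF-PO in all 3 segments, with differences of -0.83, -0.46 and -2.82. Its SI1 signal was 1696 with HF-PO, 789.9 with HF-OO and 3020.5 with HF-SO, and its SI3 signal was 4.5 with HF-PO, 80.3 with HF-OO and 129 with HF-SO. Of 21 tested genes of xenobiotic metabolism, 8 were below 0 in all 3 segments and 3 above 0 in all 3, where 14.1% of all genes tested were below and 11.9% above.

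The extremes of single segments included genes that were dim on 1 array. In SI1 the 6 largest higher differences were those of Gkn2, Scd1, Gkn3, Wbp2nl, Depdc1b and Osbpl5, and the 6 largest lower ones those of Cbln1, Slc7a5, Hk3, Ubxn11, Hrct1 and Ccdc138. Slc7a5, a transporter of large neutral amino acids, had SI1 signals of 18.1 with HF-PO, 98.3 with HF-OO and 127 with HF-SO, a difference of -2.07. In SI2 they were Scd1, Msx1, Ctrl, Car1, Lpcat4 and Scd2 on the higher side and Slc10a2, Tbc1d2, Orc1, Trmt61a, Castor1 and Fgf15 on the lower side. Msx1, a homeobox factor, had SI2 signals of 136 with HF-PO, 151 with HF-OO and 11.8 with HF-SO, a difference of 2.45. In SI3 they were Dhx38, Kcnk10, Scd1, H2-Q10, Pdk4 and Ccdc114 on the higher side and Car1, Cyp1a1, Mark1, Slfn9, Col4a6 and Tmem178 on the lower side. Dhx38, a splicing helicase, had SI3 signals of 237 with HF-PO, 183 with HF-OO and 24.7 with HF-SO, and in both examples on the higher side the HF-SO array alone was dim. Ctrl, a pancreatic protease, had SI2 signals of 179 with HF-PO, 47.7 with HF-OO and 29.4 with HF-SO. The summed signal of 13 exocrine pancreas genes in SI2 was 7151 with HF-PO, 7577 with HF-OO and 7160 with HF-SO, and in SI1 it was 61787 with HF-PO, 47481 with HF-OO and 50066 with HF-SO.

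Proliferation genes lay mostly above 0 in SI1 and mostly below 0 in the other segments. Of 22 tested cell cycle genes, 20 were above 0 in SI1, 5 in SI2 and 1 in SI3. The shares of all genes tested were 48.3%, 49.0% and 46.5%. The medians of the cell cycle genes were 0.26, -0.23 and -0.30. Few of the 22 passed 1.5-fold, with 0, 0 and 2 lower and 0 higher. Among all genes tested, 2.9%, 2.6% and 3.17% were lower and 2.42%, 1.71% and 2.64% higher. The 7 tested stem cell markers had medians of 0.30, -0.24 and -0.20, and the 4 tested Paneth cell markers had medians of 0.37, -0.20 and -0.23 (0.57 in SI1 with the mean of all probe sets). Olfm4, a marker of crypt base stem cells, differed by 0.49, -0.24 and -0.25, and Itln1, a lectin of Paneth cells, by 0.68, -0.29 and -0.22. Markers of mature enterocytes stood the other way in SI1, with all 7 tested below 0 and a median of -0.27, against 0.06 in SI2 and 0.23 in SI3. The SI1 median of the enterocyte markers was -0.05 with quantile normalization, while that of the cell cycle genes was 0.24. How much crypt and villus the scrapings held was not tested. Smooth muscle markers had medians of 0.03, -0.56 and -0.23, with 4 of 8 genes at least 1.5-fold lower and 1, Des, higher in SI2. In that segment, 2.6% of all genes tested were lower and 1.71% higher. The summed signal of the smooth muscle markers in SI2 was 9208 with HF-PO, 10494 with HF-OO and 11179 with HF-SO.

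**Figure D3:**
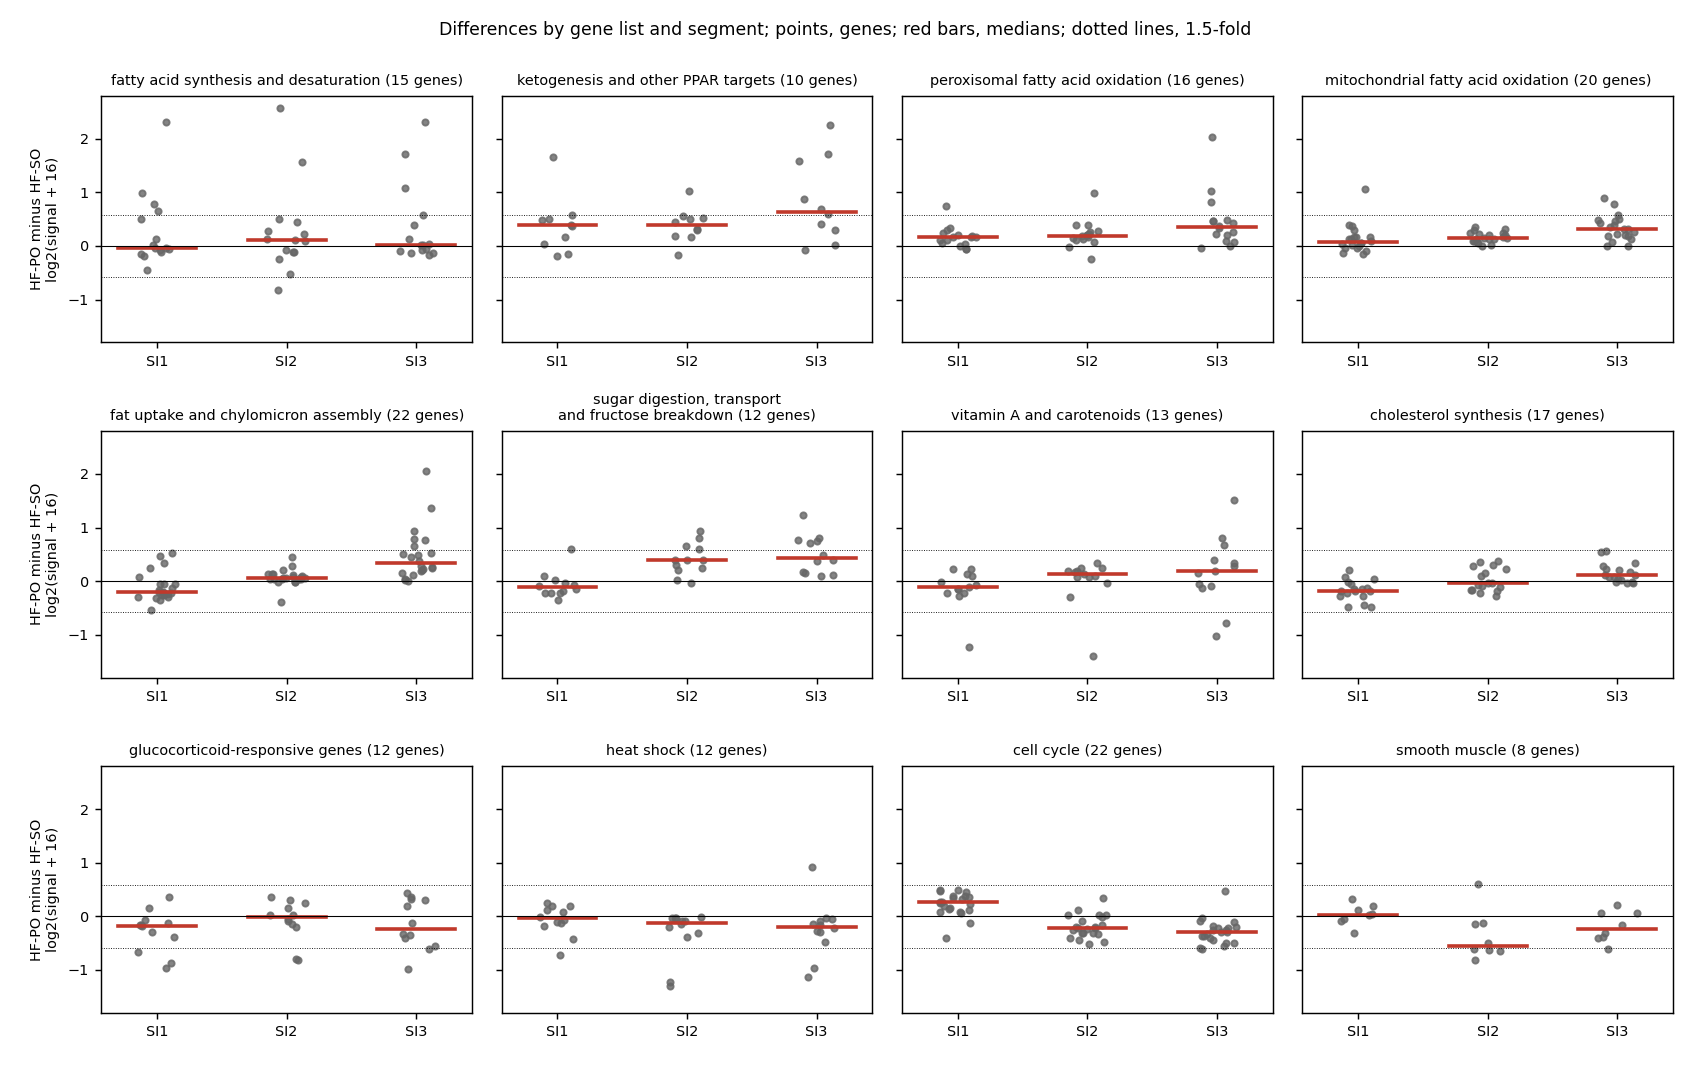
Differences of HF-PO minus HF-SO on the log2(signal + 16) scale in SI1, SI2 and SI3 for 12 gene lists; each point is 1 gene, red bars are list medians and dotted lines mark 1.5-fold. Medians of the PPAR target and both oxidation lists are above 0 in every segment and highest in SI3, and the cell cycle median is above 0 in SI1 and below 0 in SI2 and SI3.

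Brightness bears on how far a single difference can be read. When the genes tested were split into 4 equal classes by their mean over the 9 arrays, 15.3%, 11.6% and 14.0% of the dimmest class were at least 1.5-fold apart in SI1, SI2 and SI3. In the brightest class the shares were 0.547%, 0.583% and 2.22%. The SD of the differences over genes was 0.45, 0.40 and 0.43 in the dimmest class and 0.17, 0.17 and 0.21 in the brightest. Of the 14 genes apart in all 3 segments, Wbp2nl, Gkn2, Cd6, Fa2h, Mfap2 and Igkv14-111 were in the dimmest class, and Rad54l2 was in the next. Scd1, Bco1, Fkbp5 and Ces5a were in the class after that, and Scd2, Acaa1b and Pck1 were in the brightest. In the brightest class, 57 genes were higher with HF-PO and 4 lower in SI3, against 8 higher and 7 lower in SI1 and 9 higher and 7 lower in SI2. In the dimmest class, the lower genes outnumbered the higher ones in each segment, with 136 higher and 247 lower in SI3.

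**Figure D4:**
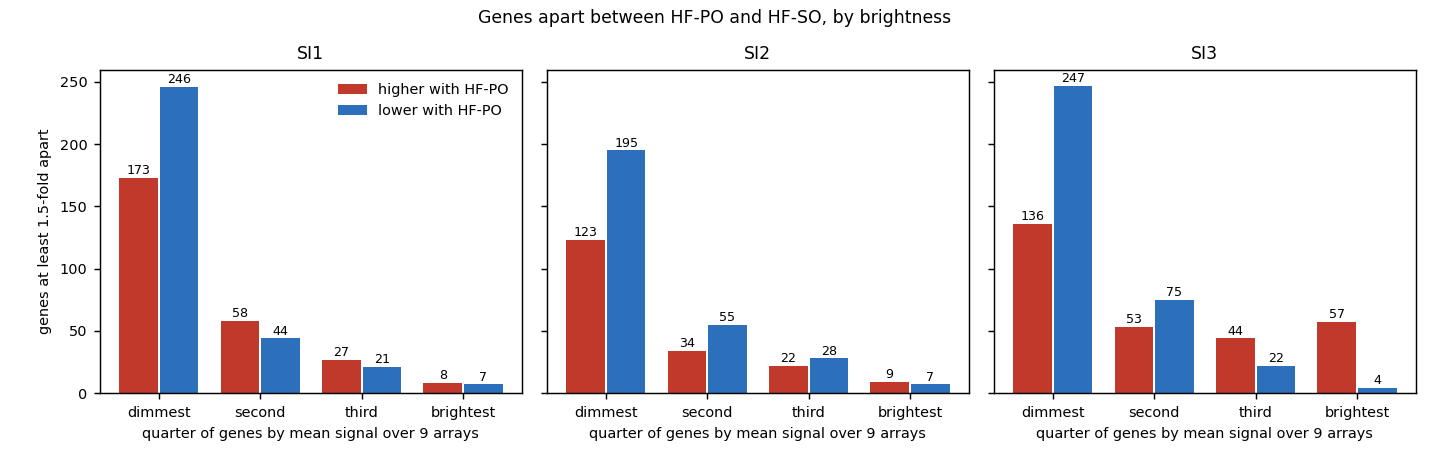
Numbers of genes at least 1.5-fold higher (left bars) or lower (right bars) with HF-PO than with HF-SO in each segment, split by mean signal over the 9 arrays. In SI3 the brightest class has 57 higher and 4 lower genes, while the dimmest class has 136 higher and 247 lower.

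The other pairs of diets gave counts of the same order. In all 3 segments, 6 genes were higher (0.0547%) and 8 lower (0.0729%) with HF-PO than with HF-OO. With HF-SO against HF-OO, 2 were higher (0.0182%) and 7 lower (0.0638%). These comparisons share arrays with the comparison of HF-PO and HF-SO, and no difference between their counts was tested. The P/S order itself was seldom followed. Of the 7 genes higher with HF-PO, HF-OO lay between the other diets in all 3 segments for 1 and in 2 segments for 4, and of the 7 lower genes for 0 and 1. Of the 14 genes, 7 had other probe sets, 11 in all, and 6 of these 11 had the same direction in all 3 segments.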

How the data were processed

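RNA of mucosal scrapings was hybridised to Affymetrix arrays. The authors deposited a linear signal intensity for each probe set and array, made with MAS5 per the submitters' processing notes (no version is given there), and the 2% trimmed mean of every array is 500. Of 45101 probe sets, 64 controls were left out. Of the other 45037, 34945 carried 1 gene symbol in the platform annotation, 932 several and 9160 none, and 34741 matched RefSeq by gene identifier. The brightest probe set over the 9 arrays stood for each gene (18193 genes), and 10977 with a mean log2(signal + 16) of at least 6.80, the median of all probe sets, were kept. Differences were HF-PO minus HF-SO within a segment, and no test was run, since each diet has 1 pool. Array medians were 94.4 to 105.9, and the number of arrays limits the precision.

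Genes were named when at least 1.5-fold apart the same way in all 3 segments (up to 20 each way, ranked by the smallest difference), when among the 6 largest differences each way in a segment, when at least 1.5-fold apart in opposite directions between segments (up to 6), or when members of a list. The 33 pathway and 20 cell type lists came from general knowledge. Members, lists and rules were chosen with earlier results of these data known. Alternatives were pseudocounts of 1 and 64, other filters, scalings, probe set rules and fold limits, and leaving out a segment. The counting steps were checked on simulated data with a smaller spread than the real differences. That check says nothing of how reliable a gene's difference is here. Software was Python 3.11.15 with pandas 2.3.3, numpy 2.4.6 and, for the plots, matplotlib 3.10.9.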

Additional observations from a re-analysis of the deposited data

Results flagged for a closer look

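For 6 genes the difference between HF-PO and HF-SO went opposite ways in 2 segments, by the widest margins found. Whether the segments differ was not tested, since each value is 1 array. Car1, a carbonic anhydrase, had SI2 signals of 67.6 with HF-PO, 294 with HF-OO and 7.3 with HF-SO, and SI3 signals of 77.3 with HF-PO, 1292 with HF-OO and 1026 with HF-SO. Its differences of 1.84 in SI2 and -3.48 in SI3 make the smaller of the opposite ones 1.84. For Nwd1 the smaller was 1.47, with -1.47 in SI2 and 2.07 in SI3. For Apcdd1, an inhibitor of Wnt signalling, it was 1.27, with -1.53 in SI1 and 1.27 in SI2. With the mean of all its probe sets Apcdd1 differed by only -0.23 in SI1 and 0.07 in SI2. For Htr1b, a serotonin receptor, it was 1.21, with -1.37 in SI1 and 1.21 in SI2. For Gm3764 it was 1.15, with 1.20 in SI1 and -1.15 in SI3. For Scube1 it was 1.08, with -1.08 in SI2 and 1.44 in SI3. In all 6, at least 1 of these arrays had a signal under 100.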

How the results depend on the processing

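No paired analysis was possible because each diet has 1 pool of mice and no result comes from a test. The counts of genes higher (7) and lower (7) in all 3 segments, in opposite directions (107), and apart in SI1 (584), SI2 (473) and SI3 (638) depend on the filter and the fold limit. Without a filter on low signals they were 48, 96, 1426, 3470, 3054 and 3343, and with a filter at the upper quartile 4, 3, 9, 90, 97 and 171. At 1.3-fold they were 33, 38, 483, 1642, 1405 and 1735, and at 2-fold 2, 1, 7, 106, 78 and 119. With a pseudocount of 1, 12 genes were lower in all 3 segments. With a pseudocount of 64, 32 were in opposite directions and 323, 246 and 365 apart in SI1, SI2 and SI3. Asking for 2 segments alone gave 35 higher and 42 lower without SI1, 20 and 38 without SI2, and 22 and 31 without SI3. Quantile normalization kept the counts within 1.5-fold, but the genes apart in SI3 were then 348 higher and 235 lower (59.7% higher), against 290 and 348 on the authors' scale (45.5%). Of the 14 genes, 13 stayed past 1.5-fold in all 3 segments with a pseudocount of 1 (Gkn2 no longer passed the filter), 10 with a pseudocount of 64, 12 with quantile normalization and 10 with the mean of all probe sets. Scd1, Wbp2nl, Scd2, Acaa1b, Bco1, Fkbp5 and Fa2h stayed in all 6 alternatives of pseudocount, filter removal, scaling and probe set rule. Removing the filter could not drop any of the 14, and centring on the median kept all 14. Wbp2nl, Acaa1b, Bco1 and Fa2h had no other probe set, so the probe set rule left them unchanged. With the filter at the upper quartile, which is not among the 6, Wbp2nl and Fa2h were among 7 genes not tested. With the mean of all probe sets Apcdd1 was -0.23, 0.07 and -0.19 in SI1, SI2 and SI3, against -1.53, 1.27 and 0.65. Of 1008 values of named genes under alternatives, 891 were close to the reported one, 116 moved and 1 reversed. Close means a shift under the SD of the differences over all genes in that segment. Changing the filter leaves each of these values as it was, so those alternatives are close by construction. Of 735 list medians 4 moved by more than the SD among the list's own genes, a wide limit. All 4 were in SI1. Paneth cell stood at 0.57 with the mean of all probe sets. With quantile normalization enterocyte stood at -0.05, respiratory chain at -0.04 and ribosomal proteins at 0.10. Not counted as moved was fat uptake in SI1 (-0.20 to -0.02 with quantile normalization). Nor was smooth muscle in SI2 (-0.56 to -0.33 with the mean of all probe sets). The causes were not tested. Dim probe sets limit what single arrays can show.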

Other observations

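Circadian clock genes differed little as a list, with medians of 0.07, 0.10 and -0.04 over 17 genes (0.03 in SI3 with quantile normalization and -0.0036 in SI1 with the mean of all probe sets). Cry2, a repressor of the clock, was an exception, with differences of 0.48, 0.63 and 0.55. Its signals in SI2 were 409 with HF-PO, 429.9 with HF-OO and 258 with HF-SO. Nfil3, a repressor of D-box genes, differed by 0.49, 0.10 and 1.18.

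Ccl5, a chemokine made by intraepithelial T cells, had signals of 4961 with HF-PO, 2986 with HF-OO and 3582 with HF-SO in SI1. Its signals were 2765 with HF-PO, 1721 with HF-OO and 1686 with HF-SO in SI2, and 1785 with HF-PO, 805 with HF-OO and 1181 with HF-SO in SI3. The HF-PO array was the brightest in each segment. Cybrd1, the iron reductase of the duodenal brush border, had SI1 signals of 435 with HF-PO, 2082 with HF-OO and 1209 with HF-SO, a difference of -1.44. Of 24 interferon response genes, 10, 15 and 18 were above 0 in SI1, SI2 and SI3, and 4 were above 0 in all 3 segments, where 48.3%, 49.0%, 46.5% and 11.9% of all genes tested were. The interferon counts in SI1 and in all 3 segments were near those shares.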
